A study of Drosophila melanogaster with 12 samples.

Results

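A set of 9 genes that make and restrain insect sensory organ precursors were followed across a dose series of the moulting hormone in cultured Drosophila wing discs: scute (sc), achaete (ac), asense (ase), senseless (sens), scabrous (sca), neuralized (neur), phyllopod (phyl), extra macrochaetae (emc) and elav. They were chosen by symbol, and all 9 were found among the 12216 genes of the deposited expression table. Of these 9, 8 passed the filter on low values, which asked for 10 or more normalised counts in 3 or more libraries. The filter kept 8455 genes in all. ase did not pass it, and sens passed only through the dosed libraries, since no 0 nM library reached 10.

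The discs came from wild-type w1118 larvae raised at 25°C and were taken 24 h after larvae had entered the third instar (the L2-L3 transition). They were cultured for 2.5 h at 25°C in medium with 20-hydroxyecdysone (20E), the active moulting hormone, at 0, 20, 200 or 2000 nM. Each dose had 3 libraries, and the 0 nM discs were cultured as well. The labels do not say what solvent carried the hormone or whether the 0 nM medium held it. The series title asks how the effects of the ecdysone receptor, the nuclear receptor for 20E, depend on the level of its ligand.

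Sensory bristles of the fly form where small groups of epithelial cells, the proneural clusters, express the proneural proteins Achaete and Scute. These are bHLH transcription factors that bind DNA together with Daughterless (Da). Extra macrochaetae is an HLH protein without the basic DNA-binding part, which takes up proneural proteins and Daughterless in inactive pairs. Within a cluster, Delta-Notch signalling leaves a single cell with high proneural activity, and that cell becomes the sensory organ precursor, in which Senseless and Asense accumulate. 

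The 12 libraries held 9034719 to 27006374 reads, and 1 read was worth 0.565 to 1.69 normalised counts. A normalised count is a read count divided by a size factor of its library. Markers of the wing disc were high, with 6 of 6 tested and a summed level of 22584 to 24824 normalised counts at 0 nM and 30504 to 33095 at 2000 nM. The fat body markers Lsp1beta, Lsp2, Fbp1 and Fbp2 summed to 24.5 to 1243 normalised counts at 0 nM and to 10.99 to 140.3 at the other doses. Replicate 3 at 0 nM was the highest, with 1136 for Lsp1beta, so results that rest on that library are also given without it. In whole discs, more cells that express a gene and more RNA in each of them cannot be told apart.

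Of the 8 tested genes, 7 rose between 0 and 2000 nM, where 15.4% of all tested genes rose, and 1, sca, did not pass the test. Between 0 and 200 nM 6 rose, against 9.92% of all genes. Both counts hold sens, which entered the test only through its dosed libraries, so its rise against 0 nM was favoured by the filter. Between 0 and 20 nM 0 rose by limma, against 2.97% of all genes, and sca fell. The proneural genes sc and ac were 2.50-fold and 2.45-fold higher at 2000 nM, their inhibitor emc was 1.70-fold higher, and the precursor gene sens was 11.3-fold higher from a base near the detection limit. Folds are antilogs of differences in mean log2(normalised count + 1), and the added 1 can shrink those of low genes. The fold of sens also rests in part on 0 nM replicate 3, which held 0 reads of it. Without that library, the log2 change of sens at 2000 nM was 2.62 in place of 3.50, so its fold is not a lower limit.

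**Figure D1:**
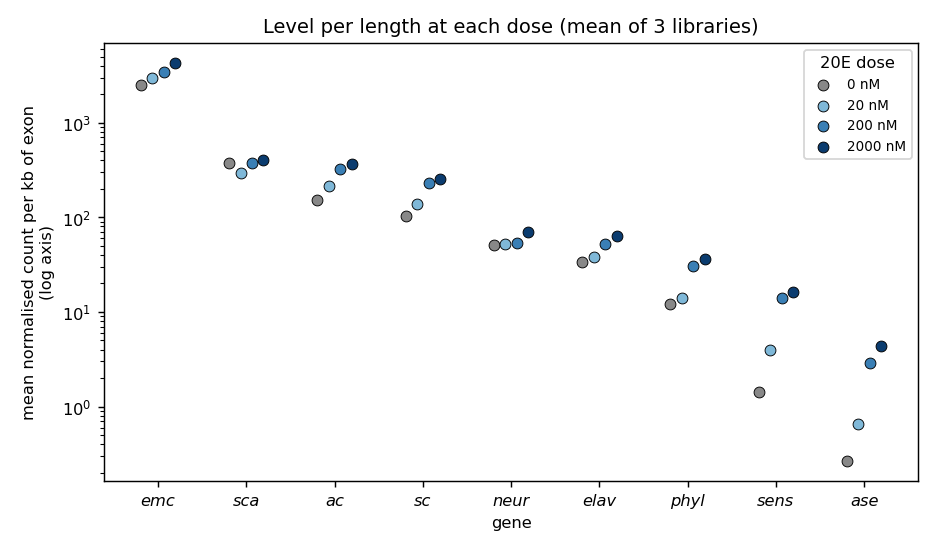
Normalised count per kb of merged exons (log axis) for the 9 genes at each 20E dose; points are means of 3 libraries. From emc at 2487 to ase at 0.266 at 0 nM, the genes keep the same order of means at all 4 doses.

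Per kb of merged exons at 0 nM, the mean normalised count was 2487 for emc and 374 for sca. It was 151 for ac, 103 for sc, 50.7 for neur and 33.5 for elav. The lowest values were 12.1 for phyl, 1.44 for sens and 0.266 for ase. At 2000 nM the values in the same order were 4234, 401, 369, 257, 70.7, 63.6, 36.3, 16.1 and 4.41, so the order was the same. Most neighbours in this order did not overlap. The exceptions were sens and ase at 0 nM, neur and elav at 200 and 2000 nM, and sca and ac at 2000 nM, where sca spanned 385 to 415 and ac 323 to 403. The exon lengths come from a later annotation and include the long 3' ends of elav, 10715 bases in all, so its level per kb is a lower estimate if those ends were not transcribed.

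sc (FBgn0004170, chromosome X) encodes the proneural factor Scute and lies beside ac in the achaete-scute complex. Its normalised counts were 165, 126 and 154 at 0 nM and 192, 212 and 192 at 20 nM. They were 294, 373 and 328 at 200 nM, and 385, 359 and 364 at 2000 nM. The 0, 20 and 200 nM libraries did not overlap each other, while 200 and 2000 nM did. The means were 148 ± 20.2, 199 ± 11.4, 331 ± 39.9 and 369 ± 13.6 (SD, n = 3). The log2 fold change against 0 nM was 0.43 ± 0.12 (SE) at 20 nM, which did not pass (adjusted p = 0.0572). At 200 nM it was 1.16 ± 0.12 (adjusted p = 4.63e-06), and at 2000 nM 1.32 ± 0.12 (adjusted p = 9.4e-07). All adjusted p-values are from limma's moderated test, two-sided, with Benjamini-Hochberg adjustment over the 8455 genes and a threshold of 0.05. The comparison of 20 with 0 nM passed without 0 nM replicate 1 (adjusted p = 0.0379), 200 nM replicate 1 (0.0482) or 200 nM replicate 2 (0.0474). sc rose again from 20 to 200 nM, by 0.73 ± 0.12 (adjusted p = 0.00102), but the further difference of 0.16 at 2000 nM did not pass (adjusted p = 0.671).

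ac (FBgn0000022, chromosome X) encodes Achaete, the partner of Scute in the same clusters. It held 143, 116 and 156 normalised counts at 0 nM and 155, 224 and 204 at 20 nM. It held 287, 279 and 322 at 200 nM and 350.0, 369.9 and 296 at 2000 nM. The 0 and 20 nM libraries touched, since the lowest at 20 nM was below the highest at 0 nM, and all 6 libraries at the upper doses were above all 6 at the lower doses. The means were 138 ± 20.1, 194 ± 35.3, 296 ± 22.5 and 339 ± 38.3 (SD, n = 3). The log2 fold change against 0 nM was 0.48 ± 0.15 at 20 nM (adjusted p = 0.106), 1.10 at 200 nM (7.93e-05) and 1.29 at 2000 nM (1.26e-05). ac passed at 20 nM without 20 nM replicate 1 (adjusted p = 0.0223). Its rise of 0.62 from 20 to 200 nM (adjusted p = 0.0177) did not pass without 20 nM replicate 1 (0.0735) or 200 nM replicate 3 (0.0842).

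The ratio of sc to ac, in counts not corrected for exon length, stayed similar across the doses. Per kb of merged exons sc was the lower of the pair, at 103 against 151 for ac at 0 nM. Per 100 normalised counts of ac there were 107.5 of sc at 0 nM, 104 at 20 nM, 113 at 200 nM and 110.0 at 2000 nM, with a range of 94.4 to 134 over the 12 libraries. The third gene of the complex, l(1)sc, was barely seen, with 0, 10, 1 and 8 reads per group in order of dose. A count of 0 in the 0 nM libraries allows at most 3 reads in each, by counting error alone. The mean of the related proneural gene ato was 4.20 to 5.41 normalised counts across the doses, and that of tap at most 0.436, and neither was tested. Daughterless, encoded by da, had 2905 ± 87.0 normalised counts at 0 nM and 3067 ± 59.6 at 2000 nM (SD, n = 3), a log2 difference of 0.08 ± 0.05 that did not pass (adjusted p = 0.309).

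**Figure D2:**
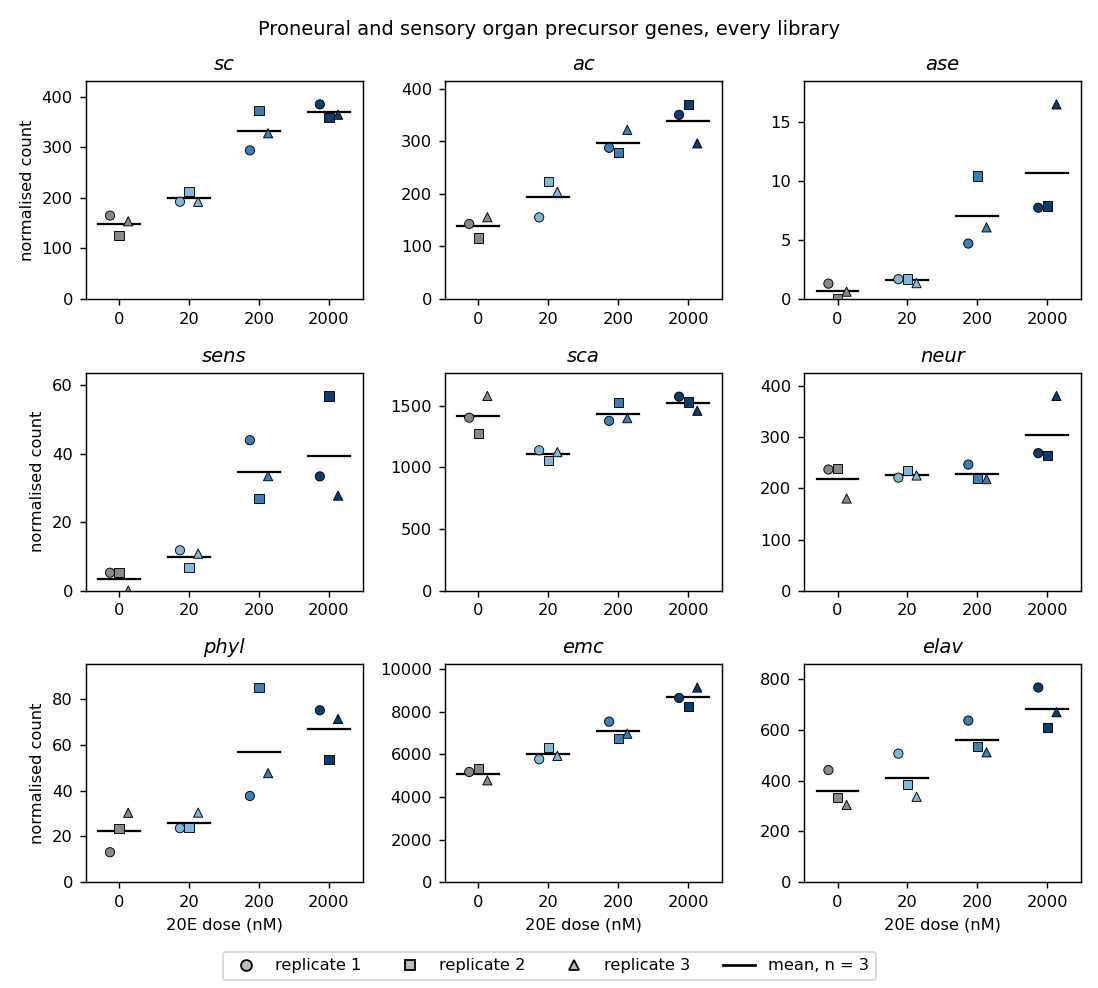
Normalised counts (linear axis from 0, scaled per gene) of the 9 genes at each 20E dose; symbols are the 3 libraries by replicate number and bars are their means. sc and ac step up between 20 and 200 nM, sca dips at 20 nM, and emc is higher at each dose than at the one before.

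ase (FBgn0000137, chromosome X), the fourth bHLH gene of the complex, is known for its expression in neural precursors. It had 1, 0 and 1 reads at 0 nM and 1, 3 and 2 at 20 nM. At 200 nM it had 3, 7 and 6 reads and at 2000 nM 13, 5 and 22. The 6 libraries at 200 and 2000 nM were all at 4.71 normalised counts or more, and the 6 at the lower doses at 1.70 or less. Summed per dose these were 2, 6, 16 and 40 reads. Corrected for depth, the ratio to 0 nM was 2.57 at 20 nM (95% interval 0.459 to 25.99), 11.5 at 200 nM (2.69 to 103) and 18.0 at 2000 nM (4.68 to 154). The intervals are exact (Clopper-Pearson) and cover counting error only. In the fit without a filter on low values, ase rose by 2.31 ± 0.50 on the log2 scale at 200 nM (limma adjusted p = 0.00414) and by 2.83 at 2000 nM (0.000576). The authors' deposited table gives ase a log2 fold change of 4.14 with a standard error of 1.28 for 2000 against 0 nM, and an adjusted p of 0.00346 over the 4 doses.

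sens (FBgn0002573, chromosome 3L) encodes the zinc finger protein Senseless, which marks sensory organ precursors and raises proneural activity in them. It held 5.24, 5.33 and 0 normalised counts at 0 nM and 11.8, 6.78 and 10.8 at 20 nM. It held 44.0, 26.9 and 33.5 at 200 nM and 33.4, 56.9 and 27.8 at 2000 nM. Every library with hormone was above every 0 nM library, and the upper doses overlapped each other but not 20 nM. The library at 0, replicate 3 at 0 nM, has a limit of 1.90 normalised counts at 3 reads, and it is also the library with the high fat body markers. The log2 fold change was 1.63 ± 0.60 at 20 nM (adjusted p = 0.212), 3.37 at 200 nM (0.000921) and 3.50 at 2000 nM (0.000507). Without that library, the changes were 0.75 at 20 nM (adjusted p = 0.614), 2.48 at 200 nM (0.000508) and 2.62 at 2000 nM (0.00025). From reads alone, 9, 35, 79 and 129 per dose, the ratios to 0 nM were 3.33 (95% interval 1.57 to 7.87), 12.6 (6.30 to 28.5) and 12.9 (6.60 to 28.9), for counting error only. The step from 20 to 2000 nM, 1.87 (adjusted p = 0.0485), was lost in 12 of 18 alternatives, with adjusted p up to 0.148.

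phyl (FBgn0013725, chromosome 2R) encodes Phyllopod, an adaptor that brings the repressor Tramtrack to the ubiquitin ligase Sina and is needed for precursor fate. It held 13.1, 23.4 and 30.4 normalised counts at 0 nM and 23.6, 23.7 and 30.4 at 20 nM. It held 37.7, 85.1 and 47.7 at 200 nM and 75.1, 53.7 and 71.3 at 2000 nM. The lower doses overlapped and so did the upper doses, with a gap between the pairs. The log2 fold change was 0.28 ± 0.33 at 20 nM (adjusted p = 0.89), 1.30 at 200 nM (0.0111) and 1.60 at 2000 nM (0.00208). The rise at 200 nM did not pass without 200 nM replicate 2, the highest library (adjusted p = 0.0607). The rise from 20 to 2000 nM, 1.33 (adjusted p = 0.0134), did not pass without 2000 nM replicate 1 (0.0537).

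Among the partners of Phyllopod, 3 of 4 listed genes were tested and 2 rose from 0 to 2000 nM, where 15.4% of all tested genes rose. ttk, which encodes Tramtrack, rose from 2976 ± 212 normalised counts at 0 nM to 4450 ± 549 at 2000 nM, by 0.58 ± 0.09 on the log2 scale (adjusted p = 0.00032). sina rose by 0.20 ± 0.07 (adjusted p = 0.031), a call lost in 6 of 18 alternatives (adjusted p up to 0.129). ebi, a further component, differed by -0.02 and did not pass (adjusted p = 0.797).

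neur (FBgn0002932, chromosome 3R) encodes the ubiquitin ligase Neuralized, which promotes endocytosis of Delta and is strongly expressed in precursors. It held 237, 239 and 180.2 normalised counts at 0 nM, 221, 235 and 225 at 20 nM and 247, 219 and 218 at 200 nM. At 2000 nM it held 269, 264 and 381. The 3 lower doses overlapped, and the 2000 nM libraries were above all 9 others. The log2 difference from 0 nM was 0.07 ± 0.14 at 20 nM (adjusted p = 0.959) and 0.07 at 200 nM (0.811). At 2000 nM neur rose by 0.47 (adjusted p = 0.0252), a call that was lost without 0 nM replicate 3 (0.123) or 2000 nM replicate 3 (0.122). The moderated F test over all doses did not pass (adjusted p = 0.0864). An antisense RNA overlaps 1673 bases of its exons. Since the strand setting of the counting is not given in the sources used here, reads of that RNA in those bases cannot be told apart from those of neur. The antisense RNA has no row among the deposited values.

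sca (FBgn0003326, chromosome 2R) encodes Scabrous, a secreted fibrinogen-related protein of proneural clusters that acts in precursor spacing. It held 1403, 1275 and 1579.6 normalised counts at 0 nM and 1138, 1058 and 1124 at 20 nM. It held 1377, 1524 and 1399.6 at 200 nM and 1574, 1530.0 and 1459.8 at 2000 nM. All 3 libraries at 20 nM were below the other 9, which overlapped. sca fell by 0.35 on the log2 scale (SE 0.08) from 0 to 20 nM (adjusted p = 0.0144), to a mean of 1107 ± 42.7 from 1419 ± 153 (SD, n = 3). This call was lost without 0 nM replicate 3 (adjusted p = 0.0793) or 20 nM replicate 2 (0.0877). It rose by 0.37 from 20 to 200 nM (adjusted p = 0.00681) and by 0.46 from 20 to 2000 nM (0.000897). Against 0 nM it differed by 0.02 at 200 nM (adjusted p = 0.914) and by 0.10 at 2000 nM (0.342), the latter within a fold of 0.968 to 1.20 (estimate ± 1.96 SE). An antisense RNA overlaps 394 bases of its exons and was itself low, at 8.79 to 20.9 normalised counts.

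emc (FBgn0000575, chromosome 3L), the inhibitor of the proneural proteins, was the most abundant of the 9. It held 5171, 5341 and 4778 normalised counts at 0 nM and 5768, 6336 and 5928 at 20 nM. It held 7530.5, 6734 and 6968 at 200 nM and 8644, 8251 and 9132 at 2000 nM. No dose overlapped another, which no other gene of the 9 showed. The means were 5097 ± 289, 6011 ± 293, 7077 ± 409 and 8676 ± 442 (SD, n = 3). The log2 fold change was 0.24 ± 0.07 at 20 nM (adjusted p = 0.0801), 0.47 at 200 nM (0.000176) and 0.77 at 2000 nM (1.12e-06). Of the steps between neighbouring doses, none passed after adjustment. The step from 20 to 200 nM was 0.24 (adjusted p = 0.0551) and that from 200 to 2000 nM was 0.29 (unadjusted p = 0.000896, adjusted p = 0.139).

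elav (FBgn0260400, chromosome X) encodes an RNA-binding protein used as a marker of differentiated neurons. It held 441, 332 and 304 normalised counts at 0 nM, 506, 385 and 336 at 20 nM, 636, 533 and 511 at 200 nM and 766, 609 and 669 at 2000 nM. Neighbouring doses overlapped except 20 and 200 nM, which were separated by a narrow gap. The log2 fold change was 0.18 ± 0.16 at 20 nM (adjusted p = 0.812), 0.65 at 200 nM (0.00955) and 0.93 at 2000 nM (0.000526). Replicate 1 was the highest library at all 4 doses for elav, and likewise for da, Dl and N. A long non-coding RNA on the same strand shares 2994 of the 10715 exon bases of elav, and reads in that stretch cannot be told apart. That RNA has no row among the deposited values. The gene arg overlaps 673 exon bases of elav on the other strand and was itself low, at 4.51 to 14.9 normalised counts.

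Of 12 other neuron markers, 7 were tested and 2 rose from 0 to 2000 nM, where 15.4% of all tested genes rose. CadN, a cadherin of axons that epithelia also express, rose by 0.68 ± 0.16 (adjusted p = 0.00429). futsch, a microtubule-associated protein of axons, rose by 0.92 ± 0.29 (adjusted p = 0.0282), a call lost without 0 nM replicate 3 (0.135), 2000 nM replicate 1 (0.0891) or replicate 3 (0.121). The elav family gene fne had 8, 2, 4 and 14 reads per dose and the synaptic gene brp 6, 10, 0 and 8. The 12 markers summed to 3146 to 4096 normalised counts at 0 nM and 3635 to 5776 at 2000 nM, and their part in the rise of elav was not tested. Of the glia markers 3 were tested and 1 rose. This was loco, which went from 1427 ± 21.1 to 1707 ± 64.1 normalised counts, by 0.26 ± 0.06 on the log2 scale (adjusted p = 0.00403). The defining glia gene repo had 3, 1, 2 and 3 reads per dose and was not tested.

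**Figure D3:**
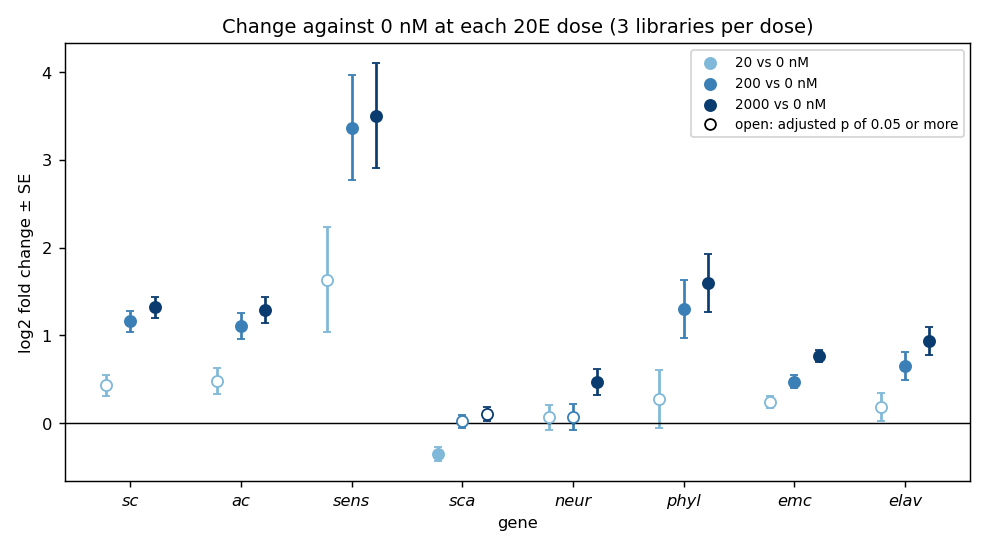
Log2 fold change against 0 nM (± SE) at 20, 200 and 2000 nM for the 8 tested genes, from 3 libraries per dose; filled points passed the threshold. sens rises most, by 3.50, sca is the only gene below 0 at 20 nM, and the 3 comparisons share the 0 nM libraries.

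The counts per comparison were read against the whole table. From 0 to 20 nM, 0 of 8 rose and 1 fell, where 4.51% of all tested genes were called (2.97% higher, 1.54% lower). The count at an unadjusted p under 0.05 was 5, and limma-voom called 1. From 0 to 200 nM, 6 of 8 rose, where 20.4% of all genes were called and 9.92% rose. From 0 to 2000 nM, 7 of 8 rose, where 31.0% were called and 15.4% rose. From 20 to 200 nM, 3 of 8 rose (sc, ac and sca), where 4.23% of all genes rose. From 20 to 2000 nM, 7 of 8 rose, where 16.3% were called and 8.30% rose. From 200 to 2000 nM, 0 of 8 were called by limma and 0.201% of all genes. Here 2 of the 8, neur and emc, had an unadjusted p under 0.05, and limma-voom called 0. The moderated F test over the doses called 7 of 8, where 23.7% of all genes were called. The comparisons share libraries, and the counts leave out ase, which did not pass the filter, and hold sens, which passed it only through the libraries where it is high. They are descriptions of the tested genes and support nothing further.

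The median log2 fold change of the 8 genes was 0.26, 0.88 and 1.11 at 20, 200 and 2000 nM against 0 nM. Over all tested genes it was -0.00, 0.00 and -0.00.

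The change at the lower doses was also expressed as a share of that at 2000 nM. At 200 nM, sens had 96.1% of its log2 change at 2000 nM, sc 87.8%, ac 85.3% and phyl 81.4%. elav had 69.7% and emc 61.7%. With a single 200 nM library left out, the share of phyl was 60.8% (replicate 2 removed) to 96.8% (replicate 1 removed). At 20 nM the shares were 37.4% for ac, 32.6% for sc and 31.1% for emc. That of ac was 49.2% without 20 nM replicate 1. Without 20 nM replicate 2 it was 28.8%, where sc had 29.0%, so their order was not fixed. The share of sens at 20 nM was 46.7%, but 28.6% without 0 nM replicate 3, where ac had 41.5% and sc 34.1%. The shares of elav and phyl at 20 nM, and those of neur at both doses, moved by over 1.5 times with the library left out and are not given. These are ratios of estimates given as a description, and their differences between genes were not tested.

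Set against emc, the inhibitor, sc was more abundant at the upper doses in every library. This held for ac at 200 nM, but at 2000 nM only in its mean. Per 100 normalised counts of emc, sc had 3.19, 2.35 and 3.22 at 0 nM and 3.33, 3.35 and 3.24 at 20 nM. It had 3.90, 5.54 and 4.70 at 200 nM and 4.45, 4.35 and 3.99 at 2000 nM. Each library at the upper doses was above each at the lower doses, and the mean at 200 nM, 4.71, was above that at 2000 nM, 4.26, with overlapping libraries. The ratio of ac to emc had means of 2.73, 3.22, 4.19 and 3.92 per 100 in order of dose. In single libraries it was 2.17 to 3.26 at 0 nM, 2.69 to 3.53 at 20 nM, 3.82 to 4.61 at 200 nM and 3.24 to 4.48 at 2000 nM. Both lower doses thus overlapped 2000 nM but not 200 nM. Against da, whose own difference did not pass, emc had 175.5, 211, 235 and 283 per 100 and sc had 5.09, 6.99, 11.1 and 12.03. These ratios compare RNA and were not tested separately.

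**Figure D4:**
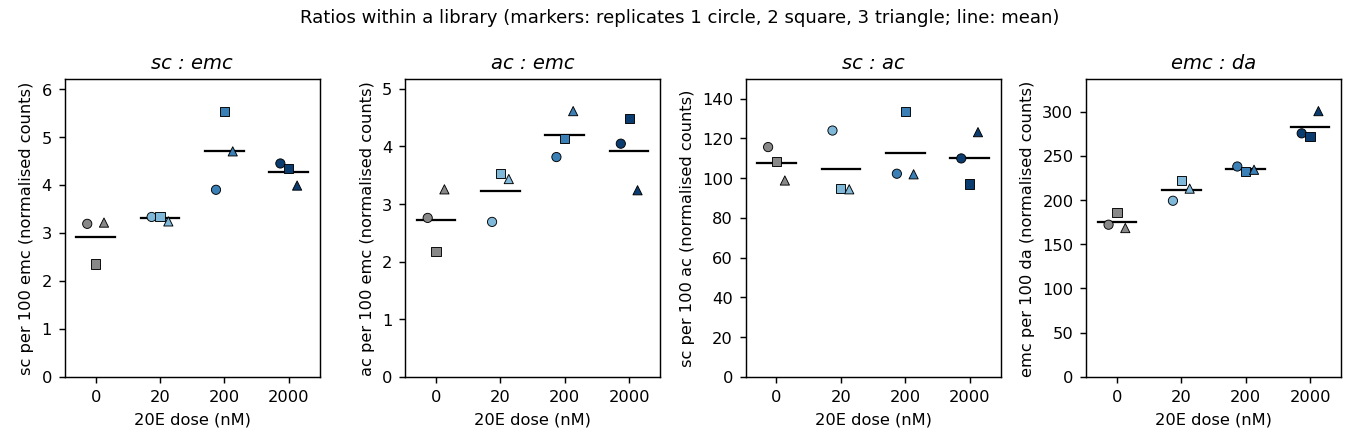
Ratios of normalised counts (per 100 of the second gene) for sc to emc, ac to emc, sc to ac and emc to da by 20E dose; symbols are the 3 libraries and bars are their means. The ratio of sc to emc is 2.35 to 3.35 at 0 and 20 nM and 3.90 to 5.54 at 200 and 2000 nM.

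For each tested gene the 3 genes with the most similar profile were taken by Pearson's r of log2 values over the 12 libraries. The candidates were 4622 tested genes with a mean of at least 50 normalised counts. Genes known only by a CG or CR number or an identifier were left out, as were lncRNA and asRNA codes. Counts of genes with r over 0.9 cover these candidates only. The libraries share dose groups, so any gene with a like dose response scores high, and no test was made. sc was closest to GV1 (r = 0.986), nemy (0.983) and Cht5 (0.981), and 239 genes had r over 0.9. ac was closest to Ugt317A1 (0.969), Nplp1 (0.964) and grsm (0.964). emc was closest to Ptpmeg2 (0.989), Mkp3 (0.989) and sano (0.987), with 248 genes over 0.9.

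The profile of elav was nearest to fz2 (0.980), salm (0.976) and Abl (0.974), and that of sens to LeuRS (0.951), Hsp27 (0.947) and Inx2 (0.940). phyl was nearest to bcn92 (0.937), ImpE3 (0.931) and egr (0.931), and neur to RhoGEF3 (0.957), Duox (0.939) and Lrt (0.938). sca had no gene over 0.9, and its nearest were Vti1b (0.877), GM130 (0.820) and nonA-l (0.811). The number of genes over 0.9 was 174 for ac, 141 for elav, 72 for sens, 15 for neur and 13 for phyl.

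The regulators that set where proneural genes are expressed were tested as a list of 16, all of which passed the filter. From 0 to 2000 nM, 11 rose and 1 fell, with a median log2 fold change of 0.52. Over the 18 alternatives, 10 to 11 rose and 1 to 2 fell. The second was gro, at -0.15 (adjusted p = 0.0586) in the main fit. It passed with equal totals per library (0.0257), limma-voom (0.0269) and the replicate block (0.0153). Over all tested genes, 15.4% rose and 15.5% fell in that comparison. ara and caup, Iroquois genes that activate ac and sc in the wing and thorax, were among those that rose. ara went from 1284 ± 95.6 to 2105 ± 95.1 normalised counts, by 0.71 ± 0.06 (adjusted p = 1.14e-06), and caup from 2505 ± 244 to 3703 ± 309, by 0.56 ± 0.08 (0.000119). pnr, the GATA factor that activates the complex in the dorsal thorax, rose by 0.53 ± 0.12 (adjusted p = 0.00326), and ush, its antagonist, by 0.86 ± 0.09 (5.09e-06). eyg, a Pax gene of the thorax, rose by 0.81 ± 0.06 (adjusted p = 2.89e-07) and had already passed at 20 nM, by 0.46 (0.000432). chn, which encodes Charlatan, a zinc finger protein known to raise ac and sc expression, fell from 3712 ± 79.5 to 1611 ± 78.5 by 1.20 on the log2 scale (SE 0.07, adjusted p = 1.28e-08). h, which encodes Hairy, a repressor of ac, differed by 0.08 (adjusted p = 0.282).

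In the list of precursor and asymmetric division genes, 12 of 15 were tested, and 5 rose and 2 fell from 0 to 2000 nM, against 15.4% and 15.5% of all tested genes. numb, the inhibitor of Notch that is handed to 1 daughter cell of the precursor, rose from 4493 ± 177 to 7408 ± 74.8 normalised counts, by 0.72 ± 0.05 (adjusted p = 1.19e-07). spdo, which encodes Sanpodo, a Notch regulator in asymmetric division, rose from 8.02 ± 2.74 to 27.5 ± 6.39 (adjusted p = 0.00314). It had only 8 reads in each 0 nM library, and these libraries alone would not have met the filter on low values. spdo thus entered the test with the help of its dosed libraries, so its rise against 0 nM was favoured by the filter. The count of 5 that rose includes it. edl rose by 0.68 ± 0.10 (adjusted p = 0.000126) and Poxn, which sets the type of sense organ, by 0.64 ± 0.15 (0.00426). insc rose by 0.63 ± 0.20 (adjusted p = 0.0324), a call lost without 0 nM replicate 3 (0.153), 2000 nM replicate 1 (0.0507) or replicate 3 (0.152). pon, which encodes the Partner of Numb, fell by 0.64 on the log2 scale (SE 0.08, adjusted p = 1.51e-05), and Sox15 by 0.45 (SE 0.06, 5.18e-05). The precursor genes dpn, pros and mira did not pass.

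Of 13 tested genes of Notch lateral inhibition, 3 rose from 0 to 2000 nM and 4 fell, where 15.4% of all tested genes rose and 15.5% fell. The ligand genes Dl and Ser rose by 0.49 ± 0.10 (adjusted p = 0.00179) and 0.45 ± 0.08 (0.000654), and kuz, a protease that cleaves Notch, by 0.57 ± 0.12 (0.00201). The 4 that fell encode bHLH repressors of the Enhancer of split complex, which Notch activates. E(spl)m7-HLH went from 438 ± 17.1 to 204.5 ± 7.41 normalised counts and so changed by -1.10 ± 0.14 on the log2 scale (adjusted p = 4.8e-05). E(spl)mgamma-HLH changed by -0.94 ± 0.19 (adjusted p = 0.00158), E(spl)m8-HLH by -0.45 ± 0.11 (0.00727) and E(spl)m3-HLH by -0.41 ± 0.09 (0.00357). E(spl)mbeta-HLH and E(spl)mdelta-HLH did not pass (adjusted p = 0.36 and 0.451). The receptor gene N differed by 0.04 ± 0.13 (adjusted p = 0.849).

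The Bearded family encodes small inhibitors of Neuralized, and 7 of 9 listed genes were tested. From 0 to 2000 nM, 3 rose and 1 fell, against 15.4% and 15.5% of all tested genes. Tom rose by 0.69 ± 0.12 (adjusted p = 0.000472), E(spl)m2-BFM by 0.67 ± 0.08 (2.12e-05) and Ocho by 0.60 ± 0.12 (0.00137). E(spl)m6-BFM fell by 0.68 on the log2 scale (SE 0.19, adjusted p = 0.0148), a call lost without 0 nM replicate 2 (0.061) or replicate 3 (0.0734). Brd itself differed by -0.02 (adjusted p = 0.936).

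**Figure D5:**
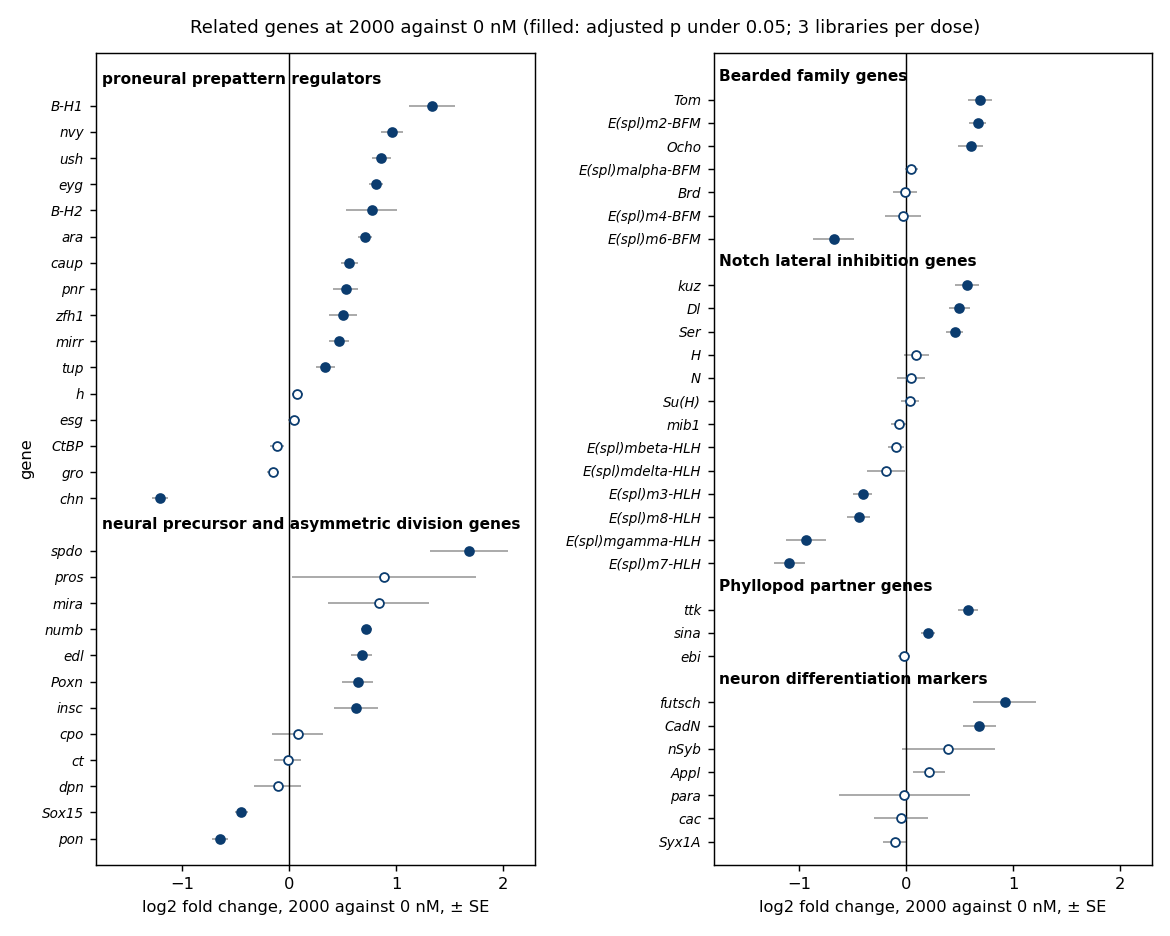
Log2 fold change (± SE) of 2000 against 0 nM for the related genes, grouped by list, from 3 libraries per dose; filled points had an adjusted p under 0.05. In this main fit chn is the only prepattern regulator that fell, and the 4 E(spl) bHLH genes that fell lie below 0 while Dl, Ser and kuz lie above.

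Markers of the disc and of cells attached to it were read in the same comparison, in which 15.4% of all tested genes rose and 15.5% fell. Of 6 wing disc markers 4 rose from 0 to 2000 nM, with wg highest at 1.22 ± 0.08 (adjusted p = 3.97e-08). Of 5 markers of adult muscle precursors, the myoblasts attached to the disc, 3 fell, led by htl at -0.71 ± 0.10 (adjusted p = 0.000115). Their sum was 3669 to 4131 normalised counts at 0 nM and 2701 to 3156 at 2000 nM. Of these 3 falls, that of twi was lost without 0 nM replicate 3 (adjusted p = 0.102), 2000 nM replicate 1 (0.0663) or replicate 2 (0.0607). The part of these markers in the rises of the proneural genes was not tested.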

How the data were processed

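RNA was measured in 12 libraries of cultured wing discs, 3 at each of 4 doses of 20E. The labels name an RNeasy extraction and a directional poly(A) library kit, although they also give total RNA as the molecule. Per the submitters' processing notes, DESeq2 1.32.0 was among the tools, beside Subread 2.0.1, HISAT2 2.1.0 and SAMtools 1.13. Neither a genome build nor an annotation or strand setting was found in the labels, so coordinates are left out. The deposited values are a signal: they were deposited under the name of normalised counts, and 1 factor per library turned 100% of them into whole numbers within 0.001. The authors also deposited a log2 fold change of 2000 against 0 nM with its error, a test score, a p-value and an adjusted p-value. The p-value matched the score under a chi-square distribution (3 degrees of freedom).

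The main model used log2(normalised count + 1) in limma 3.58.1 (R 4.3.3), with 1 mean per dose, an intensity trend, no block and 8 residual degrees of freedom. Genes tested, 8455, had 10 or more normalised counts in 3 or more libraries. Benjamini-Hochberg adjustment ran over all of them, with a threshold of 0.05. The script was tested on simulated data. "Rose" and "fell" are used only past the threshold. Values are means ± SD over 3 libraries and log2 fold changes ± SE. The text names all 9 genes, and l(1)sc, da, Dl, N and h. The plan was to name also the 4 or fewer genes of each list that had the smallest adjusted F p, but some of these are left out. The lists of tracheal, blood cell and other disc markers are not described. Other related genes were chosen after their values were seen. The 9 genes and the lists were chosen with earlier results of these data known. Genes of a list without a row in the table were not analysed here. Exon lengths, overlaps and chromosomes come from Ensembl 115 for the assembly BDGP6.54. No label states separate cultures for the replicates, so the p-values reflect only the spread among libraries, which may be technical.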

Additional observations from a re-analysis of the deposited data

How the results depend on the processing

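Across 48 comparisons of the 8 tested genes and 18 alternatives, 820 of 864 values kept their direction and side of the threshold, 20 lost a call, 12 gained a call and 12 changed sign without being called. Of 24 calls, 18 held under all 18 alternatives and 0 changed direction. The alternatives were pseudocounts of 0.5 and 5, no filter on low values, the replicate number as a block, leaving out each of 12 libraries, and, chosen after seeing the data, limma-voom on whole reads and equal totals per library. The scaling by TMM and the tests of edgeR and DESeq2 that were planned were not run. Leaving out 1 library, the number of genes called was 0 to 2 for 20 against 0 nM, 5 to 6 for 200 against 0 nM, 6 to 7 for 2000 against 0 nM, 2 to 4 for 200 against 20 nM, 5 to 7 for 2000 against 20 nM, 0 for 2000 against 200 nM and 7 for any dose. The related lists had 46 calls among 85 tested genes for 2000 against 0 nM, where 31.0% of all tested genes were called, and 40 to 46 with 1 library left out. With the replicate block, 5 were called for 200 against 20 nM in place of 3, adding emc (adjusted p = 0.0358) and elav (0.00319). Whether same-numbered libraries pair was not settled. Of 18 same-numbered pairs, 7 had a correlation of deviations over 0.1, and 6 of 12 libraries correlated best with their own number. The median correlation was 0.057 for same-numbered pairs and -0.047 for pairs of other numbers. Over the whole table, 2000 against 200 nM had 17 calls, 46 with the block and 0 when either 200 nM replicate 3 or 2000 nM replicate 1 was left out. Values changed sign, none of them called, in these cases. For neur at 200 against 20 nM the difference was -0.0079 with equal totals and -0.028 with limma-voom, and -0.052 to 0.036 with 1 library left out. With 1 library left out, it was -0.068 to 0.13 for neur at 20 against 0 nM, -0.063 to 0.14 for neur at 200 against 0 nM and -0.16 to 0.35 for sens at 2000 against 200 nM. It was -0.056 to 0.098 for sca at 200 against 0 nM and -0.049 to 0.53 for phyl at 20 against 0 nM. For these sign changes the cause was not tested. Depth limits ase and sens at 0 nM, where the group sums were 2 and 9 reads.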

Other observations

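In 2000 nM replicate 3, insc and neur were far above the other replicates of that dose, a pattern chosen after its values were seen. insc had 939 normalised counts there against 615 and 487, and neur 381 against 269 and 264. ase was also highest in that library, at 16.5 against 7.75 and 7.90 normalised counts. sens went the other way and was lowest there, at 27.8 against 33.4 and 56.9.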
